A study of Homo sapiens with 6 samples.

Results

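The immediate early genes that encode AP-1 subunits, EGR1 and related fast-response proteins were described here: FOS, FOSB, JUN, JUNB, JUND, EGR1, ATF3, IER2, IER3 and KLF6. They were taken by gene symbol, with no threshold on a measured value, and each of the 10 symbols matched 1 of the 62710 genes in the count table. RNA of HCT116, an established human colon cancer cell line, was sequenced in 6 libraries. The 3 sh-NC libraries came from cells infected with a lentivirus that carried a scrambled shRNA, and the 3 sh-IGF2BP3 libraries from cells infected with a lentivirus that carried 1 shRNA against IGF2BP3, an RNA-binding protein that stabilises bound mRNAs. Both lines were stably selected with puromycin, so lentiviral integration and drug selection were common to both groups, and no second shRNA was used in these libraries. The comparison asked how RNA levels differed when IGF2BP3 was knocked down. No label says that the replicates came from separate cultures, so the p-values measure only the spread between these libraries, which may be technical.

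Immediate early genes are transcribed within minutes of a stimulus from factors already present in the cell, without new protein synthesis. Serum, growth factors, stress and the handling of cells activate ERK and the stress kinases, which act on SRF with its ELK partners and on CREB at the promoters of these genes. FOS and JUN proteins then pair to form AP-1, a dimeric transcription factor of the leucine zipper class. The mRNAs are short-lived, many through AU-rich sequence near their ends, so their levels follow what happened to the cells shortly before lysis.

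Library totals lay between 16146718 and 23576469 counts. All 10 genes passed the filter on low counts, as did 16753 genes of the table. The lowest count of any of them was 277, for FOSB in sh-NC 3, with an exact Poisson 95% interval of 245 to 312 that covers counting error only. Levels are given as CPM, counts scaled to a common library size with TMM factors, and always in the order of replicates 1, 2 and 3. IGF2BP3 itself measured 90.3, 84.1 and 70.3 CPM across the sh-NC libraries against 60.2, 52.3 and 55.8 CPM across the knockdown libraries. Its groups did not overlap, with a log2 fold change of -0.54 (SE 0.18), an adjusted p of 0.126 by edgeR's quasi-likelihood test and an exact two-sided permutation p of 0.10, the smallest that 3 against 3 libraries allow. The epithelial markers EPCAM, KRT8, KRT18, KRT19, CDH1 and CLDN4 were well above the filter, while CDH17 reached at most 1.41 CPM and VIL1, LGALS4 and TSPAN8 were under 1 CPM in every library and not tested, with summed levels of 10 such markers of 2243 to 3948 CPM in sh-NC and 3328 to 4408 CPM in sh-IGF2BP3. Of 10 markers of other cells, 7 were under 1 CPM in every library, among them PTPRC, CD3E, DCN and HBB. The collagen gene COL1A1 made up most of the summed 30.4 to 52.5 CPM in sh-NC and 32.2 to 62.6 CPM in sh-IGF2BP3.

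Within 250 bases before the start site the members differ in matches to the sites that the upstream factors read. Of these windows 4 are printed because they belong to the genes on which the expression patterns below turn. RefSeq (GRCh38.p14) gave the 250 bases before the start site for 9 of the members, IER3 having no entry. The windows lie at chr14:75278578-75278827 (plus strand), chr19:45467746-45467995 (plus strand), chr1:58784048-58784297 (minus strand) and chr5:138465229-138465478 (plus strand), written 5′ to 3′ on the gene's strand. Capitals mark the CArG boxes read by SRF, the short core of the cAMP response element (TGACG or CGTCA) and the JUN-type site (TGACATCA or TGATGTCA).
FOS: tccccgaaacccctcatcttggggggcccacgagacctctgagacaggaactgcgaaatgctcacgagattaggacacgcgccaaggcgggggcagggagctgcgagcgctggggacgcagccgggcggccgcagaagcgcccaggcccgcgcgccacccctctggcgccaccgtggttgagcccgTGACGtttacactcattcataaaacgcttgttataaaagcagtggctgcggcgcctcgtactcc
FOSB: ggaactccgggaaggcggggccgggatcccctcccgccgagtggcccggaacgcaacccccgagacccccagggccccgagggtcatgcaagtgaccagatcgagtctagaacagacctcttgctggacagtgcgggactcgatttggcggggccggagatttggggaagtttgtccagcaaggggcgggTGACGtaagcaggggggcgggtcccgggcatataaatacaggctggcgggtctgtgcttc
JUN: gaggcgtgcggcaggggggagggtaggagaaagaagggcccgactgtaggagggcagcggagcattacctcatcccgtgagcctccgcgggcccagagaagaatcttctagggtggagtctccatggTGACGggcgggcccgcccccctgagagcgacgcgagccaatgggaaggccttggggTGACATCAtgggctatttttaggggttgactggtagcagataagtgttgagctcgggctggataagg
EGR1: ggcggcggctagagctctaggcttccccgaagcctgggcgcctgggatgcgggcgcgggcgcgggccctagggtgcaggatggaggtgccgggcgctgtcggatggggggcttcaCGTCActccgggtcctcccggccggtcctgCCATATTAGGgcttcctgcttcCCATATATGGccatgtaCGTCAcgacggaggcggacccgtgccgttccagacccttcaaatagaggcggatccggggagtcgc

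In these windows the short core of the cAMP response element, searched on both strands, was present in 7 of the 9 members (FOS, FOSB, JUN, JUNB, JUND, EGR1 and IER2) against 21.2% of 35116 RefSeq windows of the same length. FOS and FOSB each held 1 such core, at bases -64 to -60 and -60 to -56 from the start site, and a TATA box (TATAAA or TTTATA) at -33 to -28 and -30 to -25. A TATA box was present in 10.7% of all windows and in FOS, FOSB and JUNB among the members. EGR1 held 2 CArG boxes, at -105 to -96 and -83 to -74, a motif found in 1.16% of windows and in no other member's window. The JUN-type site lay at -67 to -60 in JUN and was also present in ATF3 and KLF6, against 2.37% of windows. The full cAMP response element, TGACGTCA, whose letters include the short core, was found in JUND alone among the members and in 1.65% of windows. The consensus AP-1 site (TGACTCA or TGAGTCA) was in no member's window and in 4.2% of all windows. KLF6 held 1 EGR site (GCGGGGGCG), a motif found with its 3 variant spellings in 5.37% of windows. The CCAAT box (CCAAT or ATTGG) was present in 5 members and in 32% of windows. A match is a match of letters and not evidence of binding. Sequence farther than 250 bases before the start site was not searched, so a member without a motif here can hold it elsewhere.

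The 10 genes showed 2 patterns over the libraries. FOS and FOSB were far higher in sh-IGF2BP3 1 than in any other library, while each of the other 8 genes was lower in sh-NC 2 and sh-NC 3 than in sh-NC 1 and in every knockdown library. None of the 10 met the call of an adjusted p under 0.05 with a fold change above 1.5 by edgeR's quasi-likelihood test, and neither did any of the 16753 genes tested (0%), among which the lowest adjusted p was 0.0563. At an unadjusted p under 0.05, 8 of the 10 were higher in sh-IGF2BP3, where 13.6% of all tested genes were higher, and 0 of the 10 were lower, where 8.54% were. The median log2 fold change of the 10 genes was 1.05, against -0.014 over all genes tested. DESeq2 called 2 of the 10 higher (IER2 and IER3), where it called 4.29% of 13087 genes higher.

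**Figure D1:**
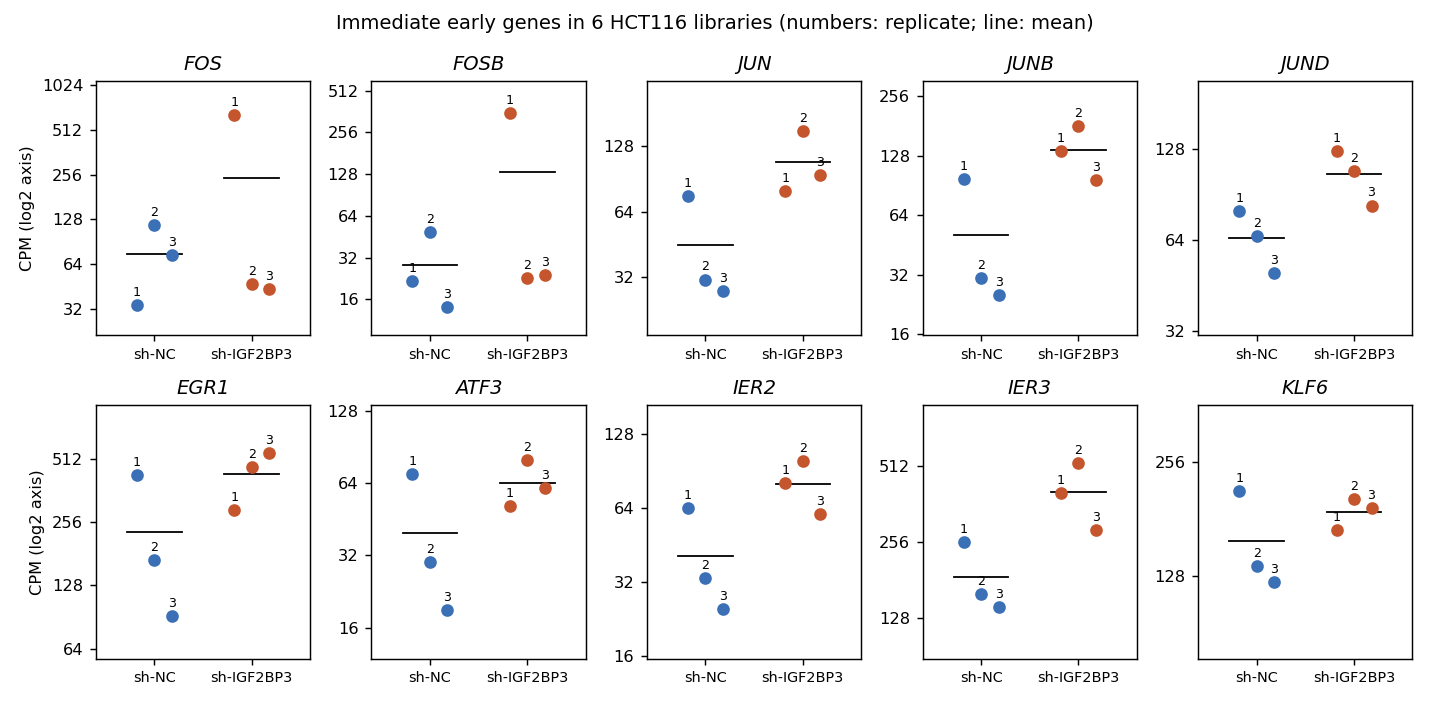
CPM (log2 axis, each panel with its own range) of the 10 immediate early genes in the 3 sh-NC and 3 sh-IGF2BP3 libraries; points carry the replicate number and lines show the group means. FOS and FOSB stand at 637 and 353 CPM in sh-IGF2BP3 1 alone, while in the other panels sh-NC 2 and sh-NC 3 are the lowest points.

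Among the FOS-family members, FOS, which forms AP-1 only as a partner of a JUN protein, measured 34.4, 118 and 74.2 CPM across the sh-NC libraries against 637, 47.0 and 43.8 CPM across the knockdown libraries. FOS lies at chr14:75278826-75282230 on the plus strand (GRCh38). The knockdown group therefore held 1 very high library, and its other libraries lay within the range of the controls. For FOS the log2 fold change was 1.68 (SE 0.73) with an adjusted p of 0.196 by edgeR's quasi-likelihood test and an exact two-sided permutation p of 0.80. Without sh-IGF2BP3 1 it was -0.73 (SE 0.38), with an adjusted p of 0.365 by the same edgeR test, and over 19 alternatives its adjusted p ran from 3.43e-10 to 0.978. In RNA of bulk cells, more cells that express a gene and more RNA per cell cannot be told apart.

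FOSB, a close relative of FOS at chr19:45467995-45475179 on the plus strand, measured 21.8, 49.2 and 14.2 CPM across the sh-NC libraries against 353, 22.8 and 23.9 CPM across the knockdown libraries. The same single library was high, and all the others overlapped. Its log2 fold change was 2.23 (SE 0.77) with an adjusted p of 0.132 by edgeR's quasi-likelihood test, the exact two-sided permutation p was 0.50, and without sh-IGF2BP3 1 the log2 fold change was -0.28 (SE 0.41). FOSB lies wholly inside ERCC1, a DNA repair gene on the opposite strand that had 516 to 924 counts, the highest in sh-IGF2BP3 1 (FOSB had 6181 counts there). The use of strand in the counting is not given in the sources used here, so reads of the 2 genes cannot be told apart where they overlap.

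The height of FOS and FOSB in sh-IGF2BP3 1 was extreme among all genes of that library. Relative to the highest of the other 5 libraries, FOSB was 7.18 times and FOS 5.41 times as high, the first and the second of 16753 genes by this ratio. Over the mean of sh-IGF2BP3 2 and 3, FOS was 14.0 times and FOSB 15.2 times as high, where the median gene had a ratio of 1.00. Only 5 of the 16753 genes were at least 3 times as high in sh-IGF2BP3 1 as in every other library. The others of those 5 were CRIP1 and CITED4, both under 4 CPM, and DUSP1, an immediate early phosphatase that inactivates MAP kinases, at 101 CPM against 14.9 to 26.6 CPM elsewhere. KLF2, a zinc finger factor of the immediate early class, came seventh, with 75.9 CPM in sh-IGF2BP3 1 and 12.8 to 28.0 CPM in the other libraries. These 4 genes were named after their values were seen, from the ranking itself. The remaining 8 members were not part of this: their ratio was at most 1.17, for JUND.

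**Figure D2:**
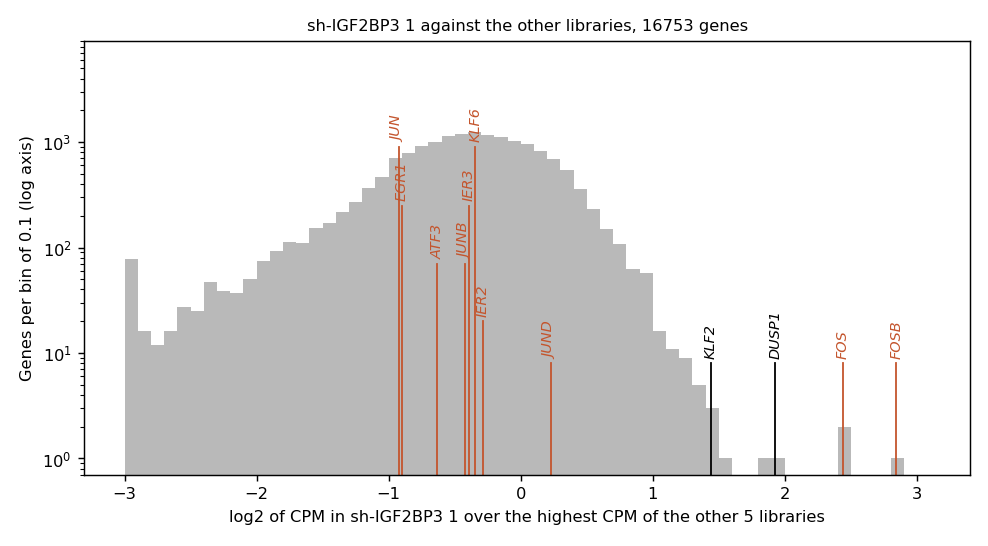
Histogram of 16753 tested genes by the log2 of CPM in sh-IGF2BP3 1 over the highest CPM of the other 5 libraries, with counts of genes on a log axis and very low ratios drawn in the lowest bin. Members are marked in orange and the immediate early genes DUSP1 and KLF2 in black; FOSB and FOS are at the far right with ratios of 7.18 and 5.41, while the other members lie within the bulk.

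The JUN family makes the obligatory partners of FOS and can also dimerise with each other. JUN (chr1:58776845-58784048, minus strand) measured 75.4, 31.1 and 27.6 CPM across the sh-NC libraries against 79.3, 150 and 94.6 CPM across the knockdown libraries. Every knockdown library was above every control, but sh-NC 1 was nearly level with sh-IGF2BP3 1. For JUN the log2 fold change was 1.28 (SE 0.33), with an adjusted p of 0.103 by edgeR's quasi-likelihood test and an exact two-sided permutation p of 0.10.

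JUNB (chr19:12791486-12793315, plus strand), which often opposes JUN in growth control, measured 97.2, 30.7 and 25.2 CPM across the sh-NC libraries against 135, 180 and 96.2 CPM across the knockdown libraries. Its groups overlapped, because sh-NC 1 lay just above sh-IGF2BP3 3. The log2 fold change was 1.43 (SE 0.39), with an adjusted p of 0.103 by edgeR's quasi-likelihood test. JUNB lies inside HOOK2, a gene on the opposite strand with 1030 to 1392 counts, against 494 to 2757 counts of JUNB, and the same limit on strand holds.

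JUND (chr19:18279694-18281622, minus strand), the member of the family that resting cells express most steadily, measured 79.97, 65.9 and 49.7 CPM across the sh-NC libraries against 126, 108 and 83.1 CPM across the knockdown libraries. Its groups did not overlap, and its highest library was 2.54 times its lowest, against 5.45 times for JUN and 7.14 times for JUNB. The log2 fold change of JUND was 0.70 (SE 0.22), with an adjusted p of 0.117 by edgeR's quasi-likelihood test. JUND has the highest GC content of the members, 69.7%, and its fold change did not remain once a trend in GC content and length was removed from each library: it was then -0.08 (SE 0.19).

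Per length, the make-up of the JUN family differed between libraries. In FPKM (fragments scaled by gene length and library total) summed over the family, JUND held 57.4% and 54.6% in sh-NC 2 and sh-NC 3, and between 28.5% and 40.6% in the other 4 libraries. JUNB held 28.2% and 29.3% in those same controls, and between 43.2% and 50.3% elsewhere. The summed FPKM of FOS and FOSB over that of the JUN family was 1.64 in sh-IGF2BP3 1, between 0.0962 and 0.148 in sh-IGF2BP3 2, sh-IGF2BP3 3 and sh-NC 1, and 0.769 and 0.548 in sh-NC 2 and sh-NC 3. On this FPKM scale the sum of FOS and FOSB exceeded that of JUN, JUNB and JUND in sh-IGF2BP3 1 alone.

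EGR1, a zinc finger factor that is induced through SRF and binds GC-rich sites, measured 429, 170 and 91.9 CPM across the sh-NC libraries against 291, 467 and 542 CPM across the knockdown libraries. EGR1 lies at chr5:138465479-138469303 on the plus strand. The control libraries spread widely, and sh-NC 1 lay above sh-IGF2BP3 1. Its log2 fold change was 0.91 (SE 0.40), with an adjusted p of 0.193 by edgeR's quasi-likelihood test and an exact two-sided permutation p of 0.20. It was 1.73 without sh-NC 1 and 0.51 without sh-NC 3. In sh-IGF2BP3 1, where FOS was at its peak, EGR1 was at the lowest level of the knockdown group.

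ATF3, a stress-induced leucine zipper factor of the CREB family, measured 69.9, 30.1 and 19.0 CPM across the sh-NC libraries against 51.6, 79.99 and 61.3 CPM across the knockdown libraries. It lies at chr1:212565334-212620777 on the plus strand. The order of the libraries resembled that of EGR1, with sh-NC 1 inside the range of the knockdown libraries. The log2 fold change was 0.70 (SE 0.34), with an adjusted p of 0.244 by edgeR's quasi-likelihood test. It was 1.39 without sh-NC 1 and 0.34 without sh-NC 3.

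IER3 (chr6:30743199-30744548, minus strand), a short stress-inducible protein that modulates ERK signalling and cell survival, measured 256, 159 and 141 CPM across the sh-NC libraries against 400.4, 525 and 285 CPM across the knockdown libraries. The groups did not overlap. Its log2 fold change was 1.12 (SE 0.26), it ranked 67 of all genes tested by p, and its adjusted p was 0.103 by edgeR's quasi-likelihood test. IER3 was the member with the highest RNA level per length, at 114 to 369 FPKM, and it was above EGR1, at 32.0 to 167 FPKM, in every library. By the median over the 6 libraries the order of the members was IER3, EGR1, JUNB, JUND, KLF6, JUN, FOS, IER2, ATF3 and FOSB, from 193 FPKM for IER3 and 112 FPKM for EGR1 to 4.02 FPKM for FOSB, and the ranges of all neighbours in this order overlapped.

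IER2 (chr19:13150411-13154911, plus strand), a nuclear immediate early protein, measured 64.1, 33.2 and 24.9 CPM across the sh-NC libraries against 81.4, 99.3 and 60.7 CPM across the knockdown libraries. Its groups overlapped by sh-NC 1 against sh-IGF2BP3 3. The log2 fold change was 0.98 (SE 0.29), with an adjusted p of 0.112 by edgeR's quasi-likelihood test.

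KLF6 (chr10:3775996-3785281, minus strand), a zinc finger factor related to the SP proteins measured 214.5, 136 and 123 CPM across the sh-NC libraries against 169, 204 and 194 CPM across the knockdown libraries. It varied least of the members, its highest library being 1.74 times its lowest. The highest library, sh-NC 1, was a control, and the log2 fold change was 0.26 (SE 0.22), with an adjusted p of 0.492 by edgeR's quasi-likelihood test. Without sh-NC 1, 2 or 3 in turn it was 0.55, 0.15 and 0.09.

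**Figure D3:**
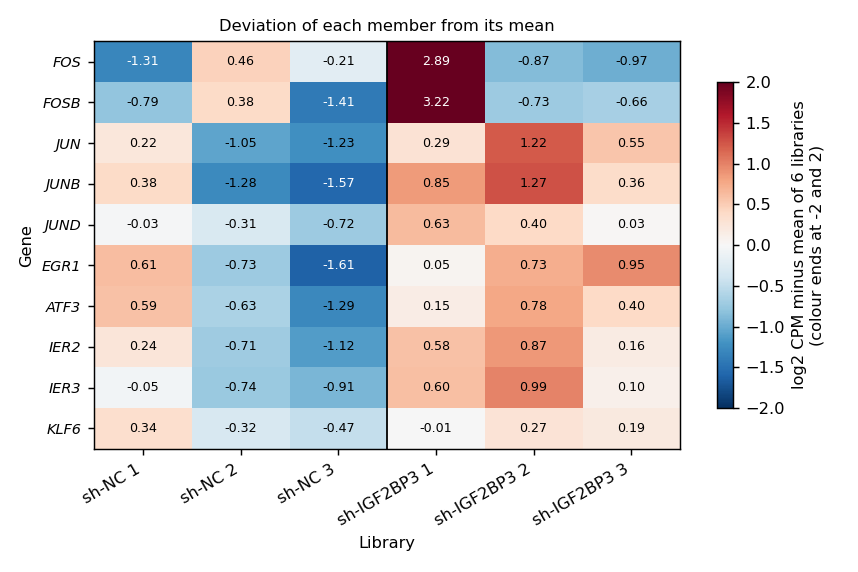
Log2 CPM of each member minus its mean over the 6 libraries, printed in each cell, with colour ending at -2 and 2. FOS and FOSB reach 2.89 and 3.22 in sh-IGF2BP3 1, and the other 8 rows are negative in sh-NC 2 and sh-NC 3 and mostly positive elsewhere.

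The members other than FOS and FOSB therefore separated the controls from each other. The ratio of sh-NC 1 to the mean of sh-NC 2 and sh-NC 3 was 3.47 for JUNB, 3.29 for EGR1, 2.85 for ATF3, 2.57 for JUN and 2.21 for IER2, where the median gene had 0.986. JUNB and EGR1 stood at percentiles 99.7 and 99.6 of all tested genes by this ratio. The ratio was 1.71 for IER3, 1.66 for KLF6 and 1.38 for JUND, and it was below 1 for FOS and FOSB, at 0.358 and 0.689. In 8 of the 10 members sh-NC 2 and sh-NC 3 were the 2 lowest libraries, which held for 21.2% of all tested genes. The median deviation of those 8 genes from their means, on the log2 scale, stood at 0.29, -0.72 and -1.17 for the sh-NC libraries and at 0.44, 0.82 and 0.28 for the knockdown libraries.

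The spread within groups was correspondingly wide. The pooled standard deviation of log2 CPM within groups was 1.68 for FOS and 1.72 for FOSB, in the top percentile of all tested genes, whose median was 0.30. It was 0.86 for EGR1, 0.81 for JUNB, 0.71 for ATF3 and 0.65 for JUN, at percentiles 97.2, 96.3, 93.7 and 91.2, and 0.55 for IER2 and 0.45 for IER3. JUND and KLF6, both at 0.32, were close to the median gene.

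Pairwise correlations over the 6 libraries describe the same split. Among the 8 members other than FOS and FOSB the 28 pairs had Pearson's r between 0.67 and 0.99 (median 0.92) and Spearman's rho between 0.49 and 1.00 (median 0.83). FOS and FOSB had r of 0.93 and rho of 0.60 with each other, and r of 0.50 over the 5 libraries without sh-IGF2BP3 1, so the high value rests on that library. The 16 pairs of FOS or FOSB with another member had a median r of 0.08. The libraries share a common shift with base composition, described next, and 1799 tested genes had r above 0.9 with the mean standardized profile of the members. All 10 members enter that profile, but FOS and FOSB had r of only 0.18 and 0.48 with it, against 0.82 to 0.99 for the others. The 5 genes most like that profile were LMNB2, GTF2F1, ATAD3A, CTU2 and H2AX, with r from 0.9985 to 0.9993 over 6 libraries. LMNB2, which encodes a nuclear lamin, measured 651, 427 and 326 CPM across the sh-NC libraries against 844, 852 and 667 CPM across the knockdown libraries.

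The members are GC-rich as a set and part of their difference between groups moved with GC content. Their median GC content was 57.2% against 48.7% over tested genes, 8 of the 10 being above that median. The trend fitted over all genes had a log2 difference between the groups, at each member's GC content and length, of 0.77 at JUND, 0.61 at JUNB, 0.49 at IER2 and 0.39 at IER3, and of -0.16 at KLF6 and -0.07 at ATF3, which have the lowest GC content. With the trend removed, the median log2 fold change of the 10 members was 0.72. It was 0.84 for JUNB, 0.50 for IER2, 0.72 for IER3 and -0.08 for JUND, all lower than before. For KLF6 and ATF3 it was 0.39 and 0.72, both higher than before. In that fit 3 of the 10 were higher at an unadjusted p under 0.05 by edgeR (JUN, JUNB and IER3), where 5.78% of 16236 genes were. The groups did not overlap for JUN, JUND and IER3 among the members, where 13.2% of all genes were higher without overlap, and after removal of the trend for IER3 alone, where 8.45% were. The share of counts from mitochondrial genes also moved with the groups, from 6.12% to 7.76% in sh-NC and from 5.24% to 5.89% in sh-IGF2BP3. What part base composition or RNA quality has in the result was not tested.

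The number of members called depended on whether sh-NC 1 was kept, and also on the filter and the test used. With all 6 libraries and no filter on low counts, edgeR called 7 of the 10 higher, where it called 687 of 36335 genes higher. Without sh-NC 1, edgeR called 7 of the 10 higher (JUN, JUNB, JUND, EGR1, ATF3, IER2 and IER3), where it called 10% of 17379 genes higher. In that fit JUNB had a log2 fold change of 2.29 (SE 0.25, adjusted p 2.47e-04), JUN 1.88 and EGR1 1.73 by edgeR's quasi-likelihood test. For each of these 7 genes sh-NC 1 was the highest control. Their larger fold changes without it therefore follow from the choice, and the p-values of that fit are no independent support. With the GC and length trend removed in addition to leaving out sh-NC 1, 7 of the 10 were called, where 4.19% of 16808 genes were. KLF6 was then called in the place of JUND, and this setting was added after the data were seen. With both sh-NC 1 and sh-IGF2BP3 1 left out, a setting chosen after seeing the data, 8 of the 10 were called higher, where 10.6% of 17081 genes were. In that setting FOS was the single member called lower, where 8.39% were, with a log2 fold change of -1.08 (SE 0.20) and an adjusted p of 0.00197 by edgeR. Over the 19 alternatives the adjusted p of JUNB ran from 4.41e-07 to 0.6245. Thus the direction for FOS and FOSB depended on the libraries kept, and the other 8 genes except JUND, which was at -0.08 with the GC and length trend removed, were higher in sh-IGF2BP3 in every fit that was run.

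**Figure D4:**
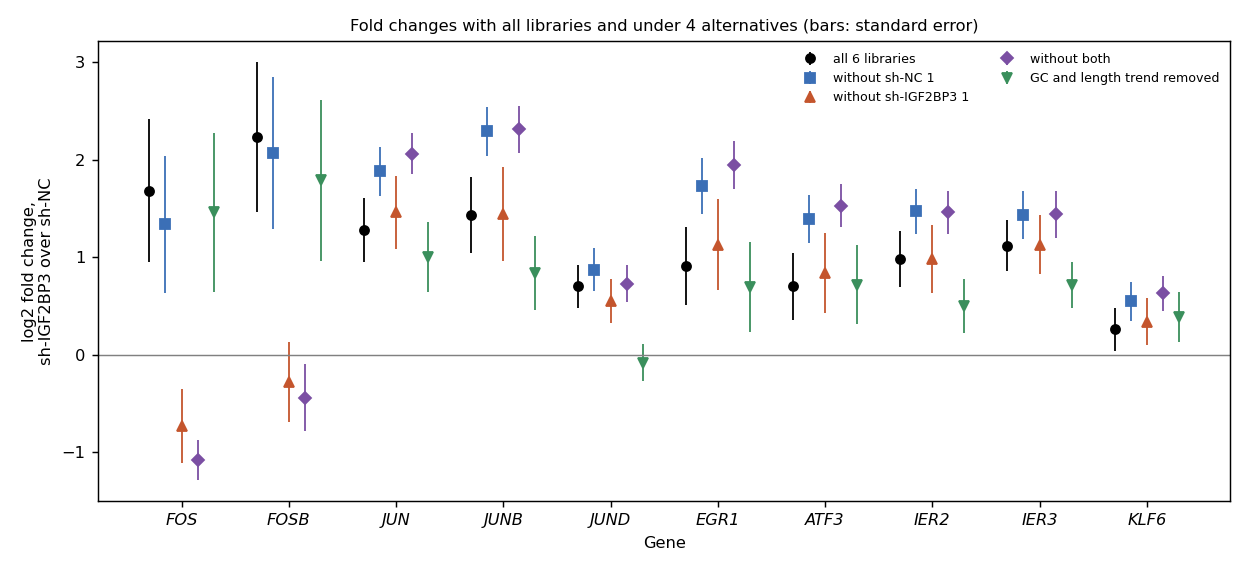
Log2 fold changes of sh-IGF2BP3 over sh-NC for each member with all 6 libraries and under 4 alternatives, with bars for the standard error. FOS and FOSB cross 0 once sh-IGF2BP3 1 is left out, JUND reaches -0.08 once the GC and length trend is removed, and JUN, JUNB and EGR1 reach 1.88, 2.29 and 1.73 without sh-NC 1. For JUN, JUNB and EGR1 sh-NC 1 is the highest control.

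Features of gene structure that the choice did not use varied among the members. JUN, JUNB, JUND and IER2 have a single exon, against 2.13% of 13093 tested coding genes with a principal transcript in GENCODE 29, whose median was 9 exons. FOS, FOSB, ATF3 and KLF6 have 4 exons and EGR1 and IER3 have 2. The AU-rich pentamer ATTTA, known from unstable mRNAs, occurred 8.14 times per kilobase of 3′ untranslated region in IER3, 6.20 times in FOS and 4.00 times in JUNB, and 0 times in IER2. The median gene had 1.54, and 6 of the 10 members were above it.

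Most other immediate early genes were, like the 8 members, lower in sh-NC 2 and sh-NC 3 than in sh-NC 1. Of 36 listed genes, EGR4 did not pass the filter and 35 were tested. By edgeR 0 of these were called, 14 were higher and 0 lower at an unadjusted p under 0.05, against 13.6% and 8.54% of all genes, and the median log2 fold change was 0.52 against -0.014. In 29 of the 35, sh-NC 1 was above sh-NC 2 and sh-NC 3, which held for 40.2% of all tested genes. The most abundant were EREG at 569 to 1110 CPM in sh-NC and 536 to 1015 CPM in sh-IGF2BP3, TRIB1, MCL1 and PLK2, with log2 fold changes of 0.00, 0.11, 0.09 and 0.04. Chosen after their values were seen, the paralogs of EGR1 and the nuclear receptor gene NR4A3 had wide gaps within the controls: EGR3 was at 25.0 CPM in sh-NC 1 and at 2.15 and 3.63 CPM in sh-NC 2 and 3, and EGR2 at 11.6, 2.48 and 1.33 CPM and NR4A3 at 10.2, 1.32 and 1.02 CPM in the same order. FOSL1, a further FOS-family partner of JUN that was likewise chosen after its values were seen, also had its lowest levels in sh-NC 2 and sh-NC 3, with 141, 44.9 and 26.5 CPM across the sh-NC libraries against 71.9, 119 and 116 CPM across the knockdown libraries.

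**Figure D5:**
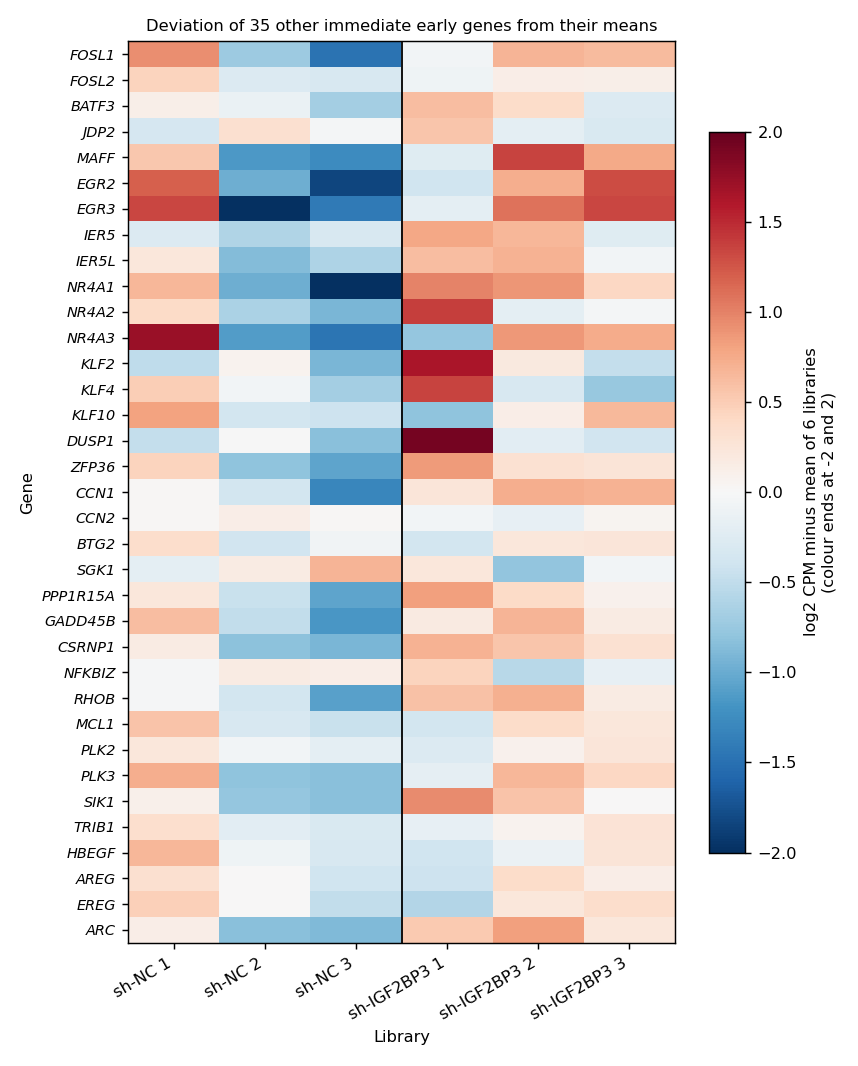
Log2 CPM minus the mean of the 6 libraries for the 35 other immediate early genes tested, with colour ending at -2 and 2. Most rows are blue in sh-NC 2 and sh-NC 3; DUSP1 and KLF2 are darkest red in sh-IGF2BP3 1, as FOS and FOSB are.

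The lists of genes that act before and after the immediate early genes had median fold changes closer to 0. In these lists the counts at an unadjusted p under 0.05 stand against 13.6% of all tested genes higher and 8.54% lower. Of 18 upstream kinases and factors, edgeR called 0, with 3 higher and 3 lower at an unadjusted p under 0.05 and a median log2 fold change of -0.18. Among the most abundant, MRTFB, ELK4 and MAP2K2 (MEK2) had log2 fold changes of -0.38, -0.46 and 0.57. Of 16 output and feedback genes of the ERK pathway 0 were called, with 0 higher and 2 lower at an unadjusted p under 0.05 by edgeR, and a median of -0.11. Among its most abundant genes DUSP5, a nuclear phosphatase for ERK, measured 567, 160 and 143 CPM across the sh-NC libraries against 163, 381 and 457 CPM across the knockdown libraries. In 7 of the 16 genes, and in 9 of the 18 upstream genes, sh-NC 1 was above sh-NC 2 and sh-NC 3, against 40.2% of all genes. CCND1, EPHA2 and PHLDA1 had log2 fold changes of 0.11, 0.32 and 0.07. Of 15 AP-1 target genes 11 were tested and 0 called, with 3 higher and 1 lower at an unadjusted p under 0.05 and a median of 0.26. In 9 of these 11 genes sh-NC 1 was above sh-NC 2 and sh-NC 3, against 40.2% of all genes. The filamin gene FLNA and the adhesion receptor CD44 had log2 fold changes of 0.62 and -0.58 without overlap of the groups, and PLAU had -0.24.

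Heat shock genes, which also respond to handling, separated sh-NC 1 from the other controls as well. Of 10 tested 0 were called by edgeR, while 5 were higher at an unadjusted p under 0.05, against 13.6% of all genes, and the median log2 fold change was 0.54. In all 10, sh-NC 1 was above sh-NC 2 and sh-NC 3, against 40.2% of all genes. HSPA8, a constitutive HSP70 chaperone, measured 3562, 1712 and 1566 CPM across the sh-NC libraries against 1527, 3385 and 3725 CPM across the knockdown libraries, so that sh-IGF2BP3 1 was level with the lower controls. DNAJA1, HSPD1 and HSPH1 had log2 fold changes of 0.37, 0.10 and -0.01. The part of handling in the levels of the members was not tested, since no label records it.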

How the data were processed

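Total RNA of 6 HCT116 libraries (3 sh-NC, 3 sh-IGF2BP3) was prepared with a TruSeq RNA kit. The authors deposited raw counts per gene and FPKM values for 62710 Ensembl genes. The submitters' processing notes name CASAVA and GRCh38, while aligner, counter and use of strand are not given in the sources used here. The deposited FPKM values equal the count over library total and a fixed gene length. They served for levels between genes. The number of columns of per-sample values not used was 0.

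Counts were fitted with edgeR 4.0.16 (R 4.3.3) by its quasi-likelihood test with TMM factors, filterByExpr and Benjamini-Hochberg adjustment over all 16753 genes tested. A call needed an adjusted p under 0.05 and a fold change above 1.5. Single genes also had an exact permutation test on CPM. The code was tested on simulated counts. CPM deviations used a prior count of 2. The closest replicates differed by more than sampling noise in a chi-square test. Alternatives were DESeq2 1.42.0, limma 3.58.1 on log2(FPKM + 1) and log2(FPKM + 0.1) with an FPKM minimum of 1 or no filter, RLE factors, other filters, a replicate block, a spline (5 degrees of freedom) in GC content and length as offsets, any fold change, and leaving out each library. Gene structure came from GENCODE 29 and promoters from RefSeq. The lists were the other immediate early genes, ERK output and feedback, upstream kinases and factors, AP-1 targets, heat shock, proliferation, epithelial markers and markers of other cells. Members and lists were chosen with earlier results of these data known. Genes named were the members, IGF2BP3, any called gene and the 4 most abundant of each list, and the 5 genes most correlated with the members' mean standardized profile. Exceptions are marked in the text, and 2 genes that the rule names are not reported here.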

Additional observations from a re-analysis of the deposited data

How the results depend on the processing

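Over 19 alternatives for each member, fold changes kept their direction and side of the threshold in 151 results, became called in 32 and reversed in 7. The alternative of any fold change reused the main fit, so its results were the same by construction. Without sh-IGF2BP3 1 the log2 fold change was -0.73 for FOS and -0.28 for FOSB, and with sh-NC 1 also left out -1.08 and -0.44; these settings were built by leaving out the library in which both peaked. For JUND it was -0.08 with the GC and length trend removed, -0.07 with that and the replicate block, and -0.02 with that and sh-NC 1 left out. The fold changes of FOS and FOSB reached 2.19 without sh-IGF2BP3 3 and 2.88 without sh-NC 2. No member and no gene of any list was called by edgeR in the fit used for the report. With 1 library dropped at a time there were 0 to 7 members called higher, 0 to 1739 genes called higher and 0 to 985 called lower over the table. Calls in the lists were then 0 to 18 higher for other immediate early genes, 0 to 2 higher and 0 to 1 lower for ERK output genes, 0 to 3 higher and 0 to 2 lower for upstream genes, 0 to 2 higher for AP-1 targets, 0 to 7 higher for heat shock genes and 0 to 4 higher for proliferation genes. The upper ends came without sh-NC 1, which was the highest control for 8 of the members. Without sh-IGF2BP3 3, IER3 alone was called among the members, and 214 genes were called higher and 14 lower. DESeq2 called 2 members higher, 562 genes higher and 137 lower, with 5 other immediate early genes, 3 heat shock and 3 proliferation genes higher and 1 upstream gene in each direction, and it gave no p for FOSB. With no filter on low counts 7 members, 687 genes higher and 150 lower, 13 other immediate early genes, 3 heat shock, 2 proliferation, 1 upstream and 1 AP-1 target gene higher were called; the cause was not tested. RLE factors and a minimum of 10 counts in every library each called 1 gene higher, and limma on log2(FPKM + 1) 1 gene lower. With both sh-NC 1 and sh-IGF2BP3 1 left out, chosen after seeing the data, 8 members were called higher and 1 lower, 1812 genes higher and 1433 lower, 20 other immediate early genes, 8 heat shock, 5 proliferation, 3 upstream, 2 ERK output and 1 AP-1 target gene higher and 2 upstream genes lower. With the GC and length trend removed and without sh-NC 1, a setting likewise added once the data were seen, these were 7 members, 705 genes higher and 177 lower, 15 other immediate early, 5 heat shock, 3 proliferation and 1 AP-1 target gene higher.

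The series text speaks of pairs of control and knockdown cells but does not say what a shared number stands for. Libraries of the same number did not deviate together (correlations of their deviations over genes of -0.28, -0.19 and -0.04), and they were not treated as paired. This check cannot show that they were unpaired, because deviations from a group's own mean are not independent. With the replicate block 0 members were called, with log2 fold changes of 0.34 for FOS and 1.13 for FOSB and between 0.30 and 1.66 for the others. The block together with the GC and length trend called 6 genes higher over the table and 0 members. Depth did not limit the members, of which the lowest count was 277; 3 libraries a group limit the exact test to a p of 0.10.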

Other observations

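Genes of proliferation were counted in the same way. Of 12 listed and tested, edgeR called 0, while 4 were higher and 0 lower at an unadjusted p under 0.05, against 13.6% and 8.54% of all tested genes, and the median log2 fold change was 0.38. In 9 of the 12, sh-NC 1 was above sh-NC 2 and sh-NC 3, against 40.2% of all tested genes. The replication helicase subunit MCM2 measured 289, 195 and 118 CPM across the sh-NC libraries against 395, 376 and 339 CPM across the knockdown libraries, without overlap of the groups. MCM3, MKI67 and TOP2A, among the most abundant of the list, had log2 fold changes of 0.38, -0.16 and -0.24.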
